A study of Mus musculus with 8 samples.

Results

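Dendritic cells of mouse ependymoma tissue were chosen from droplet single-cell RNA counts by gene detection, which gave 108 cells of the 39632 barcodes kept in 4 libraries. A barcode was kept with at least 1000 unique molecular identifiers (UMIs, each a captured RNA molecule), 200 to 6000 genes and at most 10% mitochondrial UMIs. A kept barcode was called a dendritic cell when the summed UMIs of Flt3, Zbtb46, Xcr1, Clec9a and Cd209a reached 2 and those of the MHC class II genes H2-Aa, H2-Ab1, H2-Eb1 and Cd74 reached 10. It also had to hold 0 UMIs of the T cell genes Cd3d, Cd3e and Cd3g, of the B cell genes Cd79a and Ms4a1, and of the microglial genes P2ry12 and Tmem119. These 16 genes chose the cells, so their levels are given as a description and without a test.

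The mice (NestinCreERT2;Fus1;RFPTdT in the labels) carried the ZFTA-RELA fusion under an inducible Cre recombinase driven by Nestin, a gene of neural progenitors, and developed ependymoma, a brain tumour. All animals of both groups bore this allele. Randomisation at 3 weeks of age assigned them a single injection into the cerebrospinal fluid of mavrilimumab (5 mg per kg), which binds the GM-CSF receptor alpha chain, or of a control antibody (vehicle IgG), and the labels give an age of 6 to 8 weeks. Cells from dissociated tissue were stained for the leukocyte marker CD45 and the erythroid marker Ter119, sorted, and prepared as 2 libraries per group. The study pooled tumours, and the labels do not state how many stand behind a library, so p-values measure the spread between libraries, which may be technical.

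Conventional dendritic cells develop from bone marrow precursors under the growth factor FLT3L, take up antigen and present it on MHC class II to CD4 T cells. Type 1 cells (cDC1) depend on the transcription factors IRF8 and BATF3, carry the chemokine receptor XCR1 and the dead-cell receptor CLEC9A, and present captured antigen to CD8 T cells on MHC class I. Type 2 cells (cDC2) express lectins such as CD209a together with SIRPα and CD11b, and migratory cells of either type gain CCR7, which leads them to lymph nodes. GM-CSF, whose receptor joins the alpha chain (Csf2ra) to the common beta chain (Csf2rb), supports dendritic cell growth in culture and in some tissues.

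Some labels of the series disagreed with the files, which bears on every direction between treatments. In 3 of 3 T cell receptor (TCR) files the sample name inside the file named the other treatment than the label. Of 2749 barcodes in the TCR library labelled mavrilimumab 1, 2491 were kept barcodes of the gene expression library labelled mavrilimumab 2 and 2 were kept barcodes of that labelled mavrilimumab 1. For the TCR library labelled mavrilimumab 2, 4867 of 5659 barcodes matched the gene expression library labelled mavrilimumab 1. With vehicle IgG 1, 182 of 193 TCR barcodes matched the gene expression library of the same label. The treatments named here follow the labels of the gene expression libraries and could not be checked against a targeted gene, since the agent is an antibody. Only 1 dendritic cell, in the library labelled mavrilimumab 2, had a barcode of a TCR library. Between 0 and 60 kept barcodes were common to a pair of libraries, and no dendritic cell was among them.

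The libraries differed in depth and size. They held 24354457 to 148657643 UMIs in all and 984 (vehicle IgG 1), 26746 (vehicle IgG 2), 6412 (mavrilimumab 1) and 5490 (mavrilimumab 2) kept barcodes, with a median of 3296 to 11759 UMIs per barcode. The dendritic cells had a median of 4716.5 UMIs in the library labelled vehicle IgG 2, 8878 in mavrilimumab 1 and 18903 in mavrilimumab 2, so that depth moved with the treatment label. Scrublet, a doublet caller, marked 1.02% and 6.14% of barcodes in the vehicle IgG libraries but 0.0156% and 0.0182% in the mavrilimumab libraries, where it did not work. It marked 4 dendritic cells, all in vehicle IgG 2. Doublets were kept.

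The dendritic cells were unevenly spread over the libraries. The library labelled vehicle IgG 1 held 0 of 984 barcodes, which allows a share of up to 0.305% when 3 counts are taken as the limit and 0.374% by the exact 95% binomial interval. The library labelled vehicle IgG 2 held 36 cells or 0.135% (95% exact binomial interval 0.0943 to 0.186), mavrilimumab 1 held 19 or 0.296% (0.178 to 0.462) and mavrilimumab 2 held 53 or 0.965% (0.724 to 1.26), with intervals that cover counting error only. Both mavrilimumab libraries lay above vehicle IgG 2, while the limit of vehicle IgG 1 lay within the interval of mavrilimumab 1. The mean share was 0.0673% ± 0.0952 (SD, n = 2) with vehicle IgG and 0.631% ± 0.473 (SD, n = 2) with mavrilimumab, a difference of 0.564 percentage points. The difference did not pass the test (two-sided exact permutation test, p = 0.3333, the smallest p that 2 libraries per group allow). When each barcode was thinned to 1000 UMIs before the gate, the difference was 0.221 points. As a share of barcodes with a UMI of Ptprc, which encodes CD45, the groups overlapped, with 0.495% of 7074 barcodes in vehicle IgG 2 above 0.305% in mavrilimumab 1 and 1.15% in mavrilimumab 2 (exact permutation p = 0.667).

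**Figure D1:**
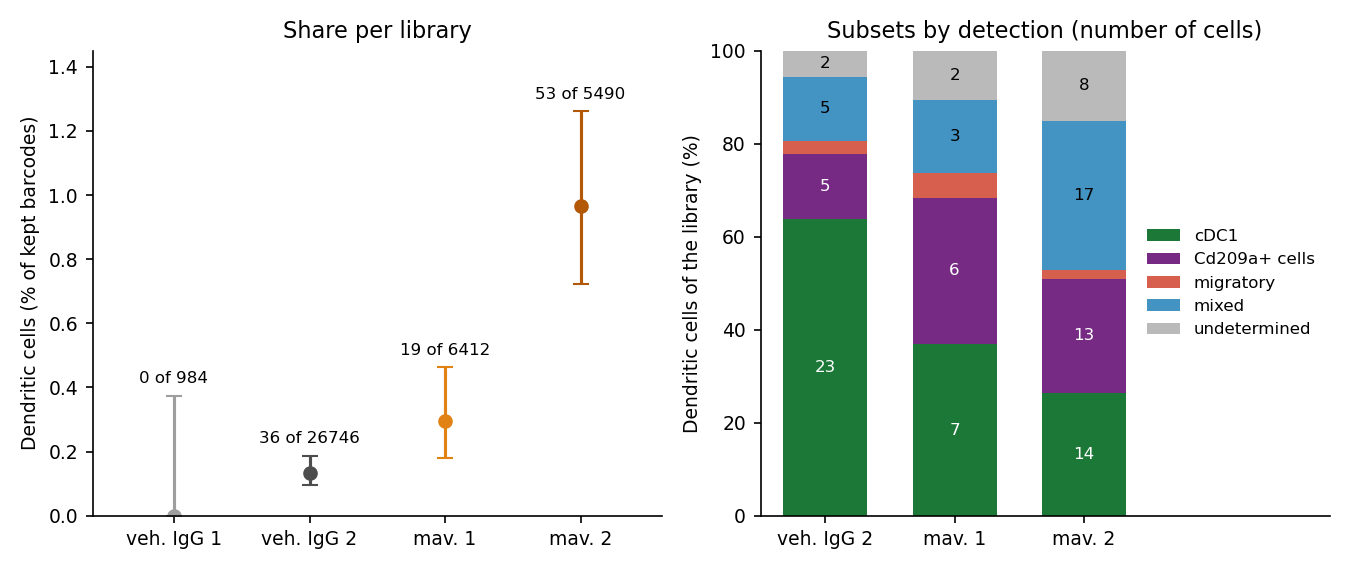
Left, dendritic cells as a percentage of kept barcodes in each of the 4 gene expression libraries, with exact 95% binomial intervals as bars; right, the percentage of dendritic cells in each subset for the 3 libraries that hold any. The share ran from 0% in vehicle IgG 1 to 0.965% in mavrilimumab 2, and the cDC1 part of the bars was 63.9% in vehicle IgG 2 and 26.4% in mavrilimumab 2.

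Detection of the genes of the gate in single cells is given as a description, since they chose the cells. Flt3, the receptor for FLT3L, was seen in 78 of 108 cells (72.2%) and Zbtb46, a transcription factor of conventional dendritic cells, in 62 (57.4%). Clec9a was seen in 65 cells (60.2%), Xcr1 in 39 (36.1%) and Cd209a in 49 (45.4%). Free RNA in the droplets gives stray UMIs, so the gate of T cells (at least 2 Cd3 UMIs) serves as the background: Flt3 was seen in 0.29% of those cells and Cd209a in 0.16%, at median depths of 2602 to 12708 UMIs. After thinning each cell to 1000 UMIs, Flt3 was seen in 19.4% of dendritic cells and 0.07% of T cells. Ccr7 was an exception, seen in 2 dendritic cells (1.85%) against 19.1% of the T cell gate, in which naive and memory T cells also express it. All 108 cells held Cd74, the invariant chain of MHC class II, and 106 held Ptprc.

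The label was checked against dendritic genes outside the gate. Batf3 was seen in 54.6% of the cells (9.26% after thinning), against 0.235% of the T cell gate (0.0456% after thinning). Wdfy4, a gene of cross-presentation, was seen in 70.4% (33.3% after thinning), against 0.516% (0.106%). Itgax, which encodes CD11c, was seen in 49.1% (15.7% after thinning), against 2.26% (0.478%). All 3 genes were seen in a larger share of dendritic cells than of T cells at equal depth. A check against T cells cannot tell dendritic cells from monocytes. Of the 24 members called Cd209a+ cells below, Batf3 was seen in 9, Wdfy4 in 15 and Itgax in 9. The genes Lyz2 and Csf1r, known from monocytes, were seen in 20 and 17 of them, so the check bears less on these cells.

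The genes that chose the cells were present in all 3 libraries. Levels are given as CPM, the UMIs of a gene per 1000000 UMIs summed over the dendritic cells of a library, and a lower sum cannot tell fewer cells of a type from less RNA per cell. In the order vehicle IgG 2, mavrilimumab 1 and mavrilimumab 2, Flt3 stood at 151, 254 and 213 CPM. Zbtb46 stood at 115, 141 and 97.9 CPM, and H2-Aa, the alpha chain of I-A, at 7229, 8589.9 and 7462 CPM. Vehicle IgG 2 was lowest for Flt3 and H2-Aa and lay between the others for Zbtb46. The cDC1 and cDC2 receptors ran in opposite order, with Xcr1 at 428, 271 and 163 CPM and Cd209a at 272, 424 and 537 CPM.

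Some barcodes lay just inside or just outside the limits of the gate. Of the members, 7 held exactly 2 UMIs of the 5 dendritic genes, with a median of 213 MHC class II UMIs, and 15 barcodes just outside held 1, with a median of 92. A further 6 members held 10 to 19 MHC class II UMIs. Outside, 154 barcodes had at least 2 UMIs of the dendritic genes but fewer than 10 of MHC class II (115 in vehicle IgG 2 and 39 in mavrilimumab 2), and their median MHC class II count was 0. Cd3 UMIs alone removed 46 barcodes, 12 in vehicle IgG 2, 23 in mavrilimumab 1, more than the 19 kept there, and 11 in mavrilimumab 2. Microglial UMIs alone removed 30 barcodes, 5 in each vehicle IgG library, 3 in mavrilimumab 1 and 17 in mavrilimumab 2. The part of these losses in the shares of the libraries was not tested. B cell UMIs alone removed 1 barcode and the upper gene limit 4.

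Some defining markers of other cells were absent. The B cell genes Pax5, Ebf1 and Fcmr were at 0, as were all 4 genes of the mast cell and basophil list, the microglial Fcrls and Slc2a5, the border macrophage genes Lyve1 and Pf4, and the neutrophil genes Ly6g, Camp and Cxcr2. The summed lists were above 0 all the same. In the order of libraries above, the B cell list was at 157, 200.5 and 254 CPM in dendritic cells, against 97.8, 291 and 202 CPM in the T cell gate. The microglia list was at 512, 1126 and 1071 CPM, against 552, 796 and 1142 CPM. The macrophage list was at 418, 413 and 386 CPM, against 1155, 55.6 and 71.5 CPM. The monocyte list was higher in dendritic cells of each library, at 2982, 6409 and 5567 CPM against 766, 1255 and 1213 CPM, and its part in the results was not tested. The 10 genes of the T cell list summed to 47.0, 11.8 and 91.5 CPM in the order of libraries above, against 2125, 4183 and 4053 CPM in the T cell gate. The 12 genes of the neural or tumour list summed to 1473, 11.8 and 52.1 CPM, against 1750, 18.3 and 38.3 CPM in the T cell gate of the same libraries. The list was highest in vehicle IgG 2 in both gates. In that library the list was at 653 CPM without the 4 Scrublet doublets and at 5511 CPM in them.

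Detection of Xcr1, Clec9a and Cd209a divided the cells into subsets. Cells with at least 2 UMIs of Ccr7 and Fscn1 were called migratory, and of the rest cDC1 had Xcr1 or Clec9a without Cd209a, Cd209a+ cells had Cd209a alone, mixed cells had both kinds and undetermined cells none. There were 44 cDC1 (40.7%, exact 95% interval 31.4 to 50.6), 24 Cd209a+ cells (22.2%), 25 mixed (23.1%), 12 undetermined (11.1%) and 3 migratory cells (2.78%, 0.577 to 7.90). Cd209a is a gene of type 2 cells, but the genes that set the Cd209a+ cells most apart from cDC1 were largely monocyte genes (F13a1, Clec4a1, Mcemp1 and Fn1 led by fold), so these cells are named by their rule and not as cDC2. Xcr1 and Cd209a hardly met, with 1 cell that held both among 39 and 49. Clec9a met both of them, with Xcr1 in 34 cells and with Cd209a in 25. Pooled over the libraries, the median depth was 13762 UMIs in mixed cells, 5910 in cDC1 and 8795 in Cd209a+ cells. The libraries differed in depth, with 17 of 25 mixed cells from mavrilimumab 2 and 23 of 44 cDC1 from vehicle IgG 2. Within each library the median depth of mixed cells lay below that of cDC1. After thinning to 1000 UMIs no mixed cell remained and 54.6% of the cells were undetermined. Undetermined cells, 8 of 12 from mavrilimumab 2, had a pooled median of 16727.5 UMIs without a UMI of the 3 genes.

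**Figure D2:**
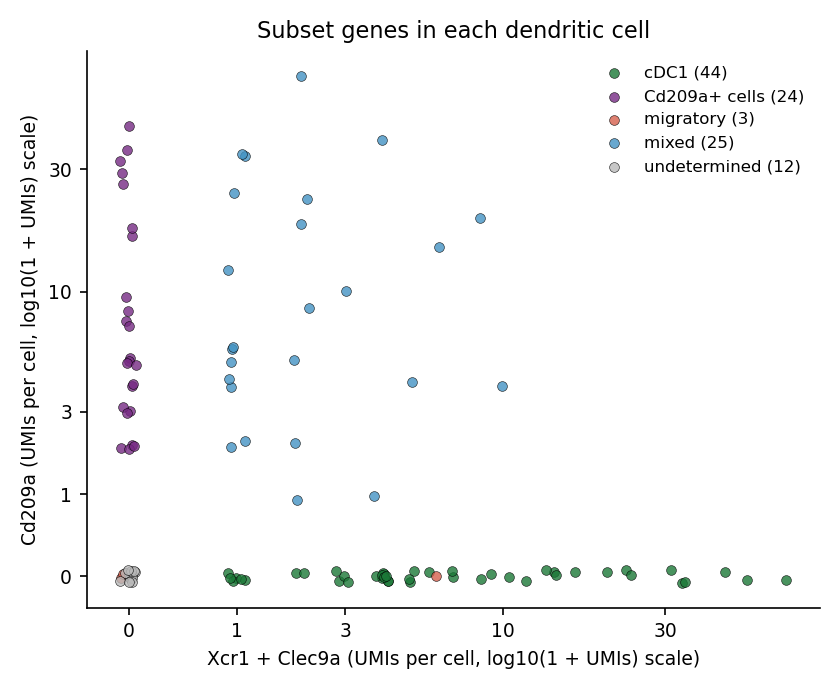
UMIs of Xcr1 and Clec9a (x axis) against UMIs of Cd209a (y axis) in each dendritic cell, on log axes of count plus 1. Cells are coloured by subset, with all libraries in 1 panel. Of the 39 cells with Xcr1, 1 also held Cd209a, while 25 cells with Clec9a did, 17 of the 25 mixed cells being from mavrilimumab 2.

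The subsets differed between libraries. The library labelled vehicle IgG 2 held 23 cDC1 among 36 cells (63.9%), mavrilimumab 1 held 7 of 19 (36.8%) and mavrilimumab 2 held 14 of 53 (26.4%). Cd209a+ cells numbered 5, 6 and 13 and mixed cells 5, 3 and 17 in the same order. The cDC1 share was thus highest in vehicle IgG 2, where depth was lowest. With at least 20 cells per library, 1 library per group was left and no test was possible. With at least 10, the mean of the mavrilimumab libraries minus vehicle IgG 2 gave a difference of -32.3 percentage points in the cDC1 share (two-sided exact permutation test, p = 0.3333, the smallest that 1 library against 2 allows).

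The 44 cDC1 and the 24 Cd209a+ cells differed in the genes of cDC1 and of monocytes. Summed counts per library and subset were compared in the 3 libraries with at least 5 cells of each, with the library in the model (edgeR quasi-likelihood test, Benjamini-Hochberg adjustment over 2181 genes, called at an adjusted p under 0.05). Of all genes tested 14.9% were called, 151 higher and 175 lower in cDC1, and the median log2 difference over all genes was -0.01. Without mavrilimumab 2, 116 genes were called, and DESeq2 called 122. Of the 13 cDC1 genes outside the rule 12 passed the filter on low counts, and all 12 were called higher, where 6.92% of all genes were. Of the 10 cDC2 genes outside the rule 4 passed, and all 4 were called lower, where 8.02% of all genes were. A gene that passed only through the subset where it is high had to differ, so these counts say little by themselves. With no filter, 13 of 13 cDC1 genes were called higher and 4 of 8 tested cDC2 genes lower.

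Irf8, the transcription factor that sets cDC1 fate, stood at 80.3, 21.5 and 128 CPM in Cd209a+ cells of vehicle IgG 2, mavrilimumab 1 and mavrilimumab 2, and at 1542, 2679 and 2229 CPM in cDC1. Irf8 was higher in cDC1 of each library, as were 17.1% of all genes tested, and the log2 difference was 4.59 ± 0.32 (SE; edgeR adjusted p = 4.95e-07). Wdfy4, needed to cross-present antigen of dead cells, stood at 121, 150.2 and 71.9 CPM in Cd209a+ cells and at 867, 1056 and 1118 CPM in cDC1, a log2 difference of 3.54 ± 0.30 (edgeR adjusted p = 2.9e-06). Batf3, the partner of IRF8, stood at 121, 42.9 and 61.6 CPM in Cd209a+ cells and at 137, 230 and 240 CPM in cDC1 (log2 difference 1.82 ± 0.42, edgeR adjusted p = 0.00828). Tlr3, a sensor of double-stranded RNA, was at 0 in Cd209a+ cells of all 3 libraries and at 377, 322 and 390 CPM in cDC1, at least 33.4-fold higher when 3 UMIs are taken as the floor over the pooled Cd209a+ cells. Other genes known from cDC1 behaved alike, with Cadm1 at least 16.2-fold higher, Snx22 at least 19.9-fold, and Naaa and Id2 higher by log2 differences of 3.20 ± 0.30 and 3.26 ± 0.36. The chemokine receptor Cxcr3 and the scavenger receptor Cd36, which took no part in the cDC1 list, were at least 12.6-fold and 24.7-fold higher.

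**Figure D3:**
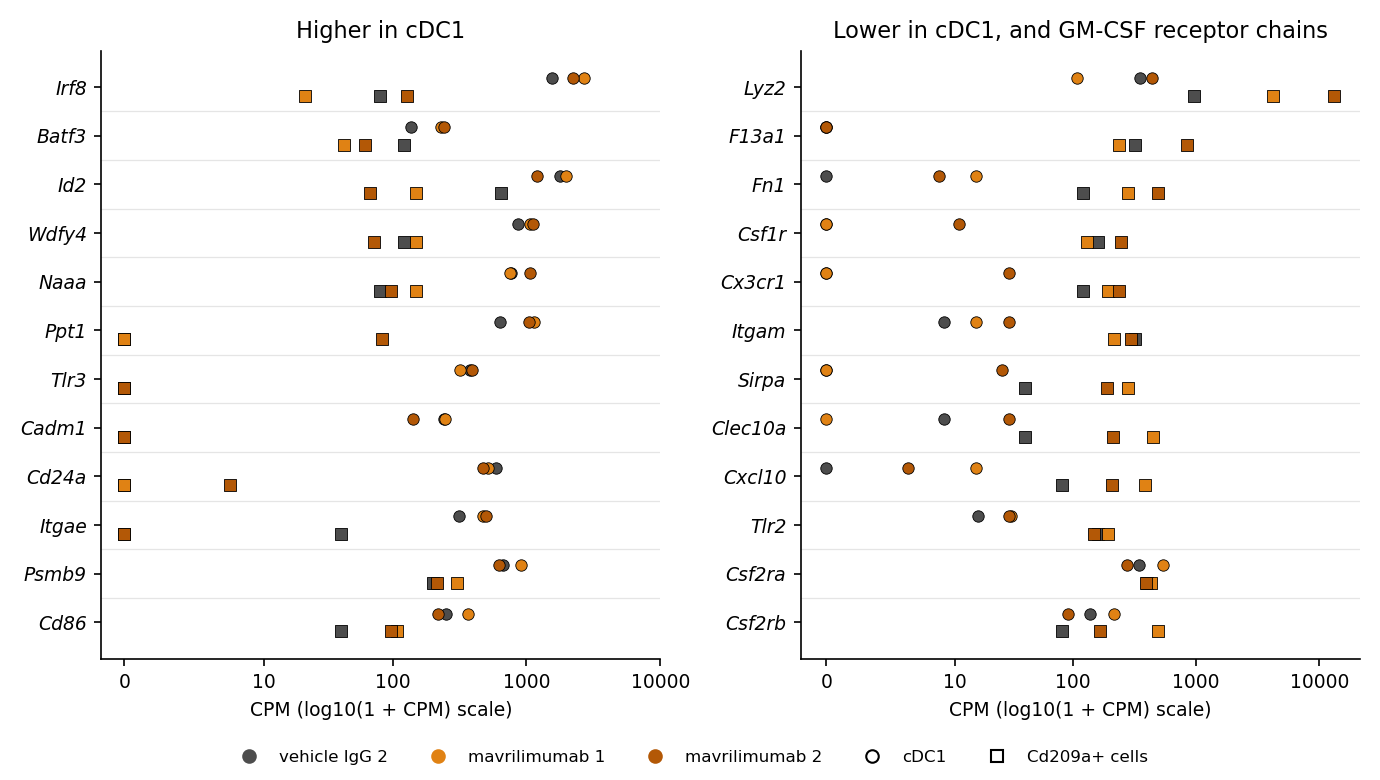
Levels of cDC1 genes, cDC2 and monocyte genes and presentation and growth factor genes in cDC1 and Cd209a+ cells of the 3 libraries with at least 5 cells of each, as log10 of 1 plus CPM, 1 point per library and subset. Irf8, Wdfy4 and Tlr3 lay apart in every library, Lyz2 and F13a1 lay apart in the other direction, and Csf2ra overlapped.

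Genes known from monocytes were higher in Cd209a+ cells. The monocyte list had 4 of 6 tested genes lower in cDC1 (4 of 7 with no filter on low counts), where 8.02% of all genes were. F13a1, Fn1, Csf1r and Cxcl10, at most 15.3 CPM in cDC1, passed the filter by their level in Cd209a+ cells. Such genes had to differ, so this count and their calls say little by themselves. Its summed level was 3454, 6933 and 16915 CPM in Cd209a+ cells of vehicle IgG 2, mavrilimumab 1 and mavrilimumab 2. In cDC1 it was 1903, 3399 and 2036 CPM. Lyz2, a lysozyme of myeloid cells, stood at 964, 4185 and 13269 CPM in Cd209a+ cells and at 353, 107 and 437 CPM in cDC1 (log2 difference -3.92 ± 0.51, edgeR adjusted p = 9.73e-05). F13a1, a coagulation factor subunit of monocytes, was at 321, 236 and 852 CPM in Cd209a+ cells and at 0 in cDC1 of all 3 libraries, at least 108-fold lower. Csf1r, the receptor for CSF1 on monocytes and macrophages, stood at 161, 129 and 246 CPM in Cd209a+ cells and at 0, 0 and 10.9 CPM in cDC1 (log2 difference -4.73 ± 0.65, edgeR adjusted p = 0.000155). These 3 genes were lower in cDC1 in each of the 3 libraries, as were 25.7% of all genes tested. Of the cDC2 list, Sirpa, an inhibitory receptor for CD47, and Itgam, which encodes CD11b, fell by 3.35 ± 0.62 and 3.61 ± 0.45 on the log2 scale. The fibronectin gene Fn1, the fractalkine receptor Cx3cr1 and the chemokine gene Cxcl10 were also lower, with log2 differences of -5.49, -3.44 and -5.13. Of the 24 Cd209a+ cells, Fn1 was seen in 9, Cx3cr1 in 18, Cxcl10 in 4, F13a1 in 11, Lyz2 in 20 and Csf1r in 17. The macrophage list summed to 321, 300.5 and 1135 CPM in Cd209a+ cells of the 3 libraries and to 225, 15.3 and 65.6 CPM in cDC1.

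Of the presentation genes, several of class I were called higher in cDC1. The list for MHC class I and cross-presentation had 6 of 13 tested genes higher and 0 lower in cDC1 (median log2 difference 0.54). Over all genes 6.92% were called higher and 8.02% lower, the shares to set beside each list here. Psmb9, a subunit of the immunoproteasome that cuts peptides for class I, stood at 201, 300.5 and 216 CPM in Cd209a+ cells and at 667, 919 and 623 CPM in cDC1 (log2 difference 1.67 ± 0.24, edgeR adjusted p = 0.000236). Tap1 and Tap2, the peptide transporter, rose by log2 differences of 0.99 ± 0.30 and 1.40 ± 0.39. The class II list outside the gate genes had 1 higher and 2 lower of 10 tested, with a median of 0.35, shares near those of all genes. H2-Ob, a brake on peptide loading, was higher in cDC1 by 2.17 ± 0.51, and the cathepsin Ctss and the thiol reductase Ifi30 of the endosome were lower by log2 differences of -0.94 ± 0.19 and -1.17 ± 0.20. For H2-Aa, H2-Ab1, H2-Eb1 and Cd74, which chose the cells, the log2 difference was 0.98, 1.12, 1.23 and 0.84. Cd86, a ligand of CD28, was higher in cDC1 (log2 difference 1.57 ± 0.37, edgeR adjusted p = 0.00904), as was Havcr2, which encodes TIM-3 (1.61 ± 0.44), and the other 3 tested genes of the costimulation list were not called. Among innate sensors Tlr3 was higher and the surface receptors Tlr2 and Clec7a were lower, of 5 tested. The interferon list had 2 higher and 4 lower of 25, with a median of -0.27, where 6.92% of all genes were higher and 8.02% lower.

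The GM-CSF receptor was present in both subsets. Csf2ra, the target of mavrilimumab, was seen in 94 of 108 dendritic cells (87.0%, and 29.6% after thinning) against 3.11% of the T cell gate. It stood at 402, 429 and 395 CPM in Cd209a+ cells and at 345, 536 and 277 CPM in cDC1, with overlapping ranges (log2 difference -0.11 ± 0.26, edgeR adjusted p = 0.867). Csf2rb, seen in 67 cells (62.0%) against 0.34% of the T cell gate, stood at 80.3, 494 and 164 CPM in Cd209a+ cells and at 137, 214 and 91.1 CPM in cDC1 (log2 difference -0.65 ± 0.37, edgeR adjusted p = 0.311). The ligand Csf2 was seen in 1 dendritic cell. Of the 6 tested genes of the GM-CSF and growth factor list, Csf1r and Socs3 were lower in cDC1. Reads of Csf2rb and its near copy Csf2rb2 may have been split by the counting, as may those of Ifit3 and Ifit3b and of H2-DMb1 and H2-DMb2.

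The 3 migratory cells were unlike each other. The cell of mavrilimumab 1 held 10 UMIs of Ccr7, 65 of Fscn1, which encodes the actin bundler of dendritic processes, 14 of the chemokine Ccl22, 18 of Il12b and 11 of the NF-kB subunit Relb, and 19 of the 21 genes of the migratory list. The cell of mavrilimumab 2 held 33 UMIs of Ccr7, none of Fscn1, 10 of Relb, 9 of Cd40 and 14 of Il4i1, and 11 of the 21 genes. The cell of vehicle IgG 2 held no Ccr7, 2 UMIs of Fscn1 together with 4 of Xcr1, and 3 of the 21 genes. The other 105 dendritic cells held 0 to 9 of these genes, with a median of 3. Only the cells of the mavrilimumab libraries exceeded the range of the rest, and the cell of vehicle IgG 2 did not. The list includes Ccr7 and Fscn1, which chose these cells, so the count was in part fixed by the choice. The cell of mavrilimumab 2 held 31378 UMIs, against a median of 9218 over all dendritic cells, and the part of depth was not tested. All Il12b UMIs came from 1 cell, and Il12a, which encodes the other subunit of interleukin-12, was not seen in any dendritic cell. No fit of migratory against other cells was made with 3 cells.

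Compared with the monocytes and macrophages of the same libraries, the dendritic cells had higher levels of the cDC1 list and of several class II presentation genes. The comparison gate needed UMIs of monocyte and macrophage genes and none of the 5 dendritic genes, and gave 17, 19 and 23 cells in vehicle IgG 2, mavrilimumab 1 and mavrilimumab 2. Its cells were not alike across libraries. The list of blood stem and progenitor genes summed to 3288, 375 and 265 CPM in them, and to 491, 884 and 388 CPM in dendritic cells. The part of progenitor cells in the differences below, the cell cycle genes among them, was not tested. Of 4121 genes tested 6.45% were called, 114 higher and 152 lower in dendritic cells (edgeR, 3 libraries with at least 10 cells of each gate). The count was 109 without mavrilimumab 2, 438 without vehicle IgG 2 and 92 without the library in the model. Of the cDC1 list 12 of 12 tested genes were higher (median log2 difference 2.81), where 2.77% of all genes were. Of these, Snx22 was at 0 in monocytes and macrophages of all 3 libraries. A gene that passed the filter on low counts only through dendritic cells had to differ, so this count says little by itself. Without the gate genes the list summed to 808, 1168 and 879 CPM in monocytes and macrophages and to 5761, 4775 and 3779 CPM in dendritic cells. Of the class II list 7 of 10 were higher (median 2.44), and the 4 class II genes of the gate, required of the dendritic cells, were left out of this count. Class II UMIs were not required of the monocytes and macrophages. The choice of cells thus favoured genes that rise with class II, and this count says little by itself. The summed list without those 4 genes overlapped, at 1587, 6964 and 2839.6 CPM in monocytes and macrophages and at 4121, 6668 and 5574 CPM in dendritic cells. The monocytes and macrophages were higher in mavrilimumab 1. Of the cDC2 list outside the rule 6 genes were tested, of which the lectin gene Clec10a was called higher and Sirpa and Clec4a2 lower (median -0.59, where 3.69% of all genes were called lower). Its summed level was lower in dendritic cells of each library, at 319, 719 and 686 CPM against 461, 1063 and 1074 CPM in monocytes and macrophages.

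H2-Oa, the partner of H2-Ob, stood at 7.09, 0 and 3.68 CPM in monocytes and macrophages and at 109.7, 165 and 151 CPM in dendritic cells (log2 difference 5.11 ± 0.63, edgeR adjusted p = 0.000398). Ciita, the master regulator of class II transcription, stood at 21.3, 122 and 0 CPM against 204, 312 and 225 CPM (2.99 ± 0.67, edgeR adjusted p = 0.0163). Both genes were higher in dendritic cells of each library, as were 17.6% of all genes tested. Only the dendritic gate required class II UMIs, so the choice of cells favoured genes that rise with class II. Jaml, an adhesion molecule, and Dpp4, the surface protease CD26, both known from conventional dendritic cells, were higher by log2 differences of 5.24 ± 0.69 and 3.25 ± 0.43, and the tight junction gene Cldn1 was at least 17.3-fold higher. Itgax, which encodes CD11c, stood at 0, 34.9 and 25.7 CPM in monocytes and macrophages and at 94.0, 159 and 183 CPM in dendritic cells (2.92 ± 0.51, edgeR adjusted p = 0.00338). Of the pan-dendritic list, outside the gate genes, 5 of 7 were higher, where 2.77% of all genes were. H2-Oa, Jaml, Cldn1 and Itgax passed the filter on low counts by their level in dendritic cells. They had to differ, so these calls say little by themselves. The macrophage list ran the other way, with 5 of 5 tested genes lower (median -4.30, where 3.69% of all genes were called lower). At most 5.90 CPM in dendritic cells, C1qa and C1qb passed the filter by their level in monocytes and macrophages. Such genes had to differ, so this count says little by itself. The complement genes C1qa and C1qb fell by 5.56 ± 0.53 and 6.27 ± 0.52 on the log2 scale, and the lipid carrier Apoe, at 2693, 5413 and 2203 CPM in the monocytes and macrophages, stood at 360.4, 59.0 and 152 CPM in dendritic cells. Chil3, a lectin of monocytes and neutrophils, was at 0 in dendritic cells and at least 347-fold lower. Of the chemokine list 3 of 10 were lower and none higher, namely Ccl3, Ccl4 and Cxcl10, which attract leukocytes. The cell cycle list had 5 of 10 lower (median -2.54), but 1 of the 10 was lower in each of the 3 libraries, where 17.6% of all genes were. The summed list stood at 6378, 418 and 4075 CPM in monocytes and macrophages and at 1677, 819 and 825 CPM in dendritic cells, higher in dendritic cells in mavrilimumab 1. Mki67, a marker of cycling cells, ran from 8.72 CPM in the monocyte and macrophage gate of mavrilimumab 1 to 531 CPM in that of vehicle IgG 2 and from 0 to 99.2 CPM in dendritic cells.

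The GM-CSF receptor genes were not called between dendritic cells and monocytes and macrophages. Csf2ra stood at 262, 488 and 522 CPM in the monocyte and macrophage gate and at 329, 531 and 329 CPM in dendritic cells (log2 difference -0.09 ± 0.31, edgeR adjusted p = 0.939). For Csf2rb the difference was 0.15 ± 0.33 (edgeR adjusted p = 0.905). The kinase Jak2, which signals for this receptor, was higher in dendritic cells at 146, 277 and 179 CPM against 28.3, 78.4 and 77.2 CPM (1.68 ± 0.38, edgeR adjusted p = 0.0163).

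**Figure D4:**
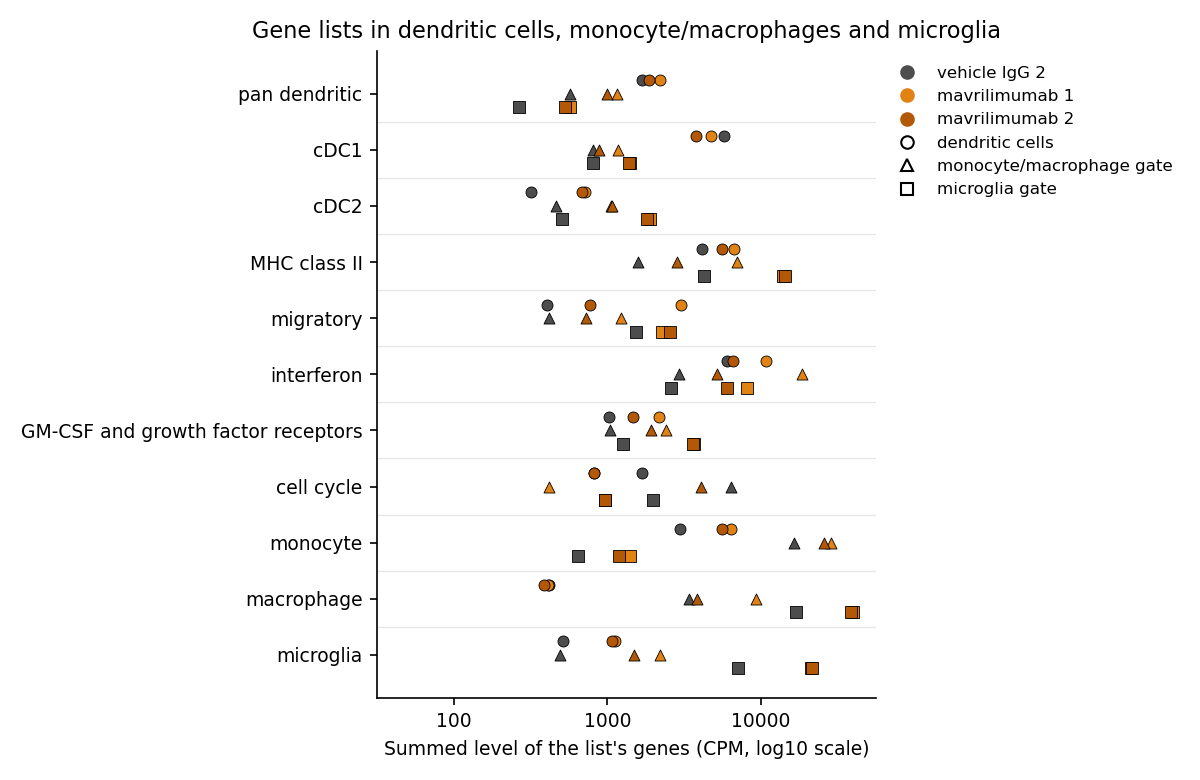
Summed levels of the gene lists in the dendritic, monocyte and macrophage, and microglia gates of the 3 libraries with at least 10 dendritic cells, as CPM on a log10 axis, 1 point per library and gate. The cDC1 list was highest in dendritic cells and the microglia list in microglia, while the gates overlapped for the interferon list. The MHC class II list without its gate genes ran from 4121 to 6668 CPM in dendritic cells and from 4269 to 14379 CPM in microglia. It was lower in dendritic cells than in microglia of each library.

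The contrast with microglia, the resident macrophages of the brain, was wider. It rested on the 2 libraries with at least 20 cells of both gates, vehicle IgG 2 and mavrilimumab 2, left out the other 2, and called 11.1% of 11988 genes, 517 higher and 818 lower in dendritic cells (edgeR), with a median log2 difference over all genes of -0.22. When the library was left out of the model no gene was called (0 at an adjusted p under 0.05 and 1413 at an unadjusted p under 0.05), and DESeq2 called 766. Of the cDC1 list 11 of 13 genes were higher (median 3.23, where 4.31% of all genes were). Of the microglia list 9 of 9 were lower (median -9.65, where 6.82% of all genes were). With no filter on low counts 12 of 13 and 9 of 9 were called. The gates used dendritic and microglial genes, so these counts say little by themselves. Fcrls, a microglial Fc receptor-like gene at 636 and 1802 CPM in microglia, was at 0 in dendritic cells of both libraries and at least 548-fold lower. The chemokine receptor Ccr2, which brings cells in from the blood, stood at 0.988 and 4.65 CPM in microglia and at 579.8 and 689.6 CPM in dendritic cells (7.90 ± 0.67, edgeR adjusted p = 7.28e-06), and Zfp366, which encodes the dendritic cell factor DC-SCRIPT, was at least 209-fold higher. Both genes were higher in dendritic cells in each library, as were 23.7% of all genes tested, while 43.7% were lower in each. Of the monocyte list 5 of 7 tested genes were higher (median 5.30), such as F13a1 at 2.63 and 0.705 CPM in microglia and at 99.2 and 245 CPM in dendritic cells (6.90 ± 0.72). Of the class II list 7 of 10 were higher, and the endosomal proteases Ctss and Lgmn were lower by log2 differences of -2.12 ± 0.34 and -5.07 ± 0.44. Only the dendritic gate required class II UMIs, so the number of class II genes called higher says little by itself. Without the gate genes the class II list summed to 4121 and 5574 CPM in dendritic cells and to 4269 and 14379 CPM in microglia. This sum was thus lower in dendritic cells of both libraries. Of the cDC2 list outside the rule 4 were higher and 2 lower of 7 (median 1.53), while its summed level was 319 and 686 CPM in dendritic cells and 505 and 1805 CPM in microglia. Of the migratory list none was higher and 3 were lower of 14 (median -0.99), and its summed level was 407 and 774 CPM against 1546 and 2570 CPM. The cDC2 and migratory sums were thus also lower in dendritic cells of both libraries. Of the NK cell and innate lymphoid list 4 of 7 were higher as well, among them Klrk1, which encodes the receptor NKG2D, at 3.95 and 3.38 CPM against 94.0 and 142 CPM (5.05 ± 0.52, edgeR adjusted p = 3.73e-05). With the gate at 3 UMIs 1 of 5 tested genes of that list was called.

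Against microglia 5 genes of the growth factor list rose, namely Jak2, Stat5a, Pim1, Kit and Il3ra, and Csf1r, Csf3r and Socs3 were lower, of 15 tested, where 4.31% of all genes were called higher and 6.82% lower. DESeq2 called 3 higher and 3 lower, and without the library in the model none of the 15 was called (0 higher and 0 lower, 1413 of all genes at an unadjusted p under 0.05). Pim1, a target of cytokine signalling through STAT5, stood at 9.55 and 29.6 CPM in microglia and at 167 and 248 CPM in dendritic cells (3.56 ± 0.51, edgeR adjusted p = 0.000487). Csf1r, on whose signal microglia depend, stood at 619.9 and 2456 CPM in microglia and at 20.9 and 143 CPM in dendritic cells (log2 difference -4.38 ± 0.45, edgeR adjusted p = 3.39e-05). Csf2ra and Csf2rb were not called (0.98 ± 0.53 and 1.39 ± 0.54, edgeR adjusted p = 0.318 and 0.134). In microglia Csf2ra itself varied from 94.1 to 301 CPM between the libraries, while it was at 329 CPM in the dendritic cells of both.

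Dendritic cells of the mavrilimumab libraries differed from those of vehicle IgG 2 in some activation, cDC2 and neural genes, on few UMIs. The comparison set 1 library, vehicle IgG 2, against mavrilimumab 1 and 2, each with at least 10 dendritic cells, and left 1 residual degree of freedom. The spread thus came from the 2 mavrilimumab libraries, the lone vehicle IgG library was assumed to vary like them, and the calls compare these libraries rather than show an effect of treatment. edgeR called 3.34% of 4607 genes, 34 higher (0.738%) and 120 lower (2.6%) in the mavrilimumab libraries, with a median log2 difference over all genes of 0.01. DESeq2 called 86, of which only 2 were higher, and without the 4 Scrublet doublets edgeR called 51, of which 22 were higher. With 1 library against 2, groups failed to overlap in 39.7% of genes upward and 34.4% downward, so that a lack of overlap says little here. The cDC1 share (63.9%, 36.8% and 26.4%) and the depth moved with the same libraries, and their part in these differences was not tested. Other gates moved as well. In the order vehicle IgG 2, mavrilimumab 1 and mavrilimumab 2, the summed interferon list was at 3907, 11389 and 6343 CPM in T cells. In microglia it was at 2591, 8112 and 5998 CPM. The migratory list was at 1546, 2271 and 2570 CPM in microglia, but at 751, 564 and 498 CPM in T cells. A shift common to all cells of a library was not tested.

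**Figure D5:**
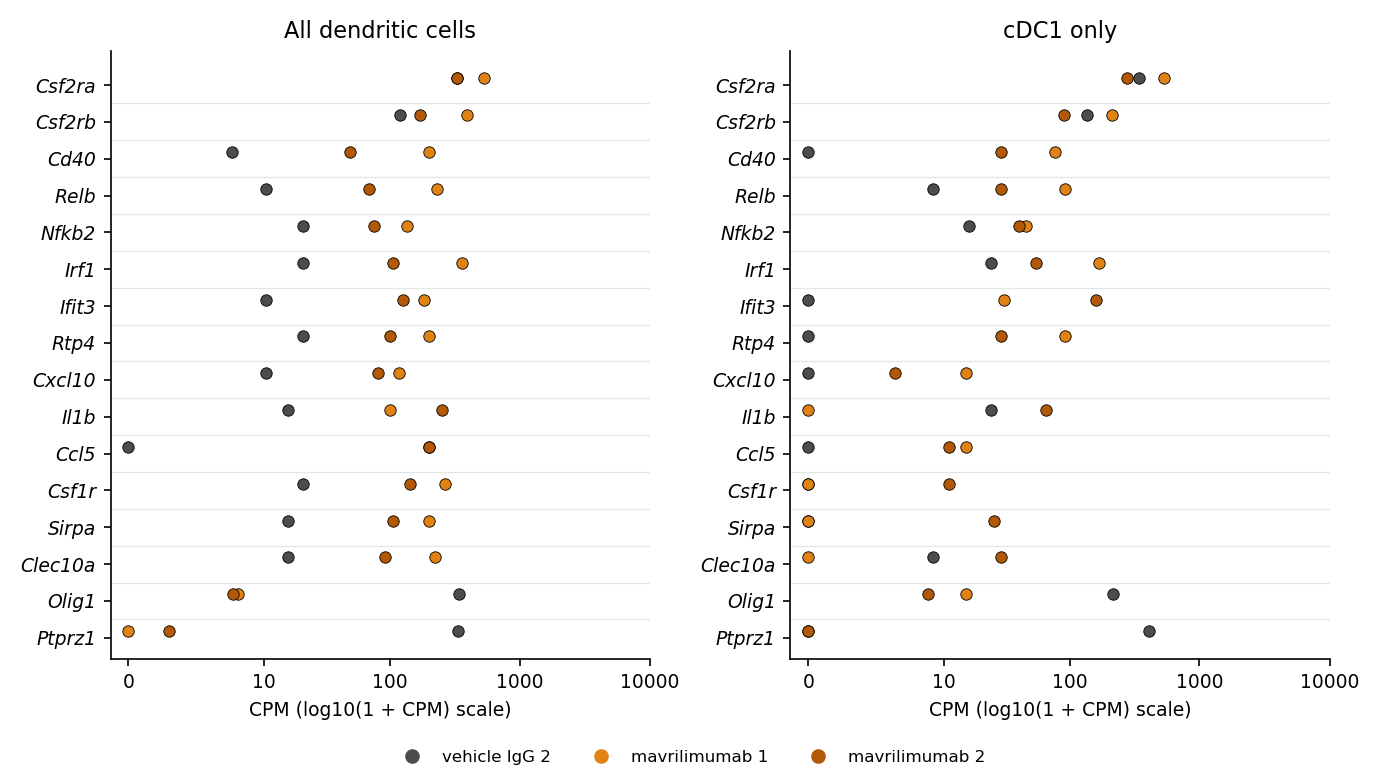
Levels of genes that rose in the mavrilimumab libraries, of receptor genes and of neural genes in vehicle IgG 2, mavrilimumab 1 and mavrilimumab 2, as log10 of 1 plus CPM, for all dendritic cells and for cDC1 only. Cd40 and Relb were lowest in vehicle IgG 2 in both panels, whereas in cDC1 Csf1r was at most 10.9 CPM and Sirpa and Clec10a at most 25.5 and 29.1 CPM.

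Some genes of activation and NF-kB signalling were called higher in the mavrilimumab libraries by edgeR. The 14 tested genes of the migratory list had a median log2 difference of 2.79. With no filter on low counts the median over 21 genes was 2.29. Relb, Nfkb2, Cd40, Marcksl1 and Tmem123 were called higher. Cd40 and Relb, low in vehicle IgG 2, passed the filter by their level in the mavrilimumab libraries. Such genes had to differ, so their calls say little by themselves. Without the Scrublet doublets 4 of 13 were called and Nfkb2 was not, and DESeq2 called none of the 14. Cd40, the receptor through which T cells activate dendritic cells, stood at 5.22 CPM (1 UMI) in vehicle IgG 2 and at 200.5 and 49.0 CPM in mavrilimumab 1 and 2. The ratio of the pooled counts was 13.8 (2.41 to 552, counting error only). Relb, an NF-kB subunit of dendritic cell maturation, stood at 10.4, 230 and 69.2 CPM, a ratio of 8.97 (2.42 to 75.1). Irf1, an interferon-induced transcription factor, stood at 20.9, 359.6 and 105 CPM (log2 difference 3.22 ± 0.64). Irf1 also passed the filter by its level in the mavrilimumab libraries, so its call says little by itself. All 3 were lowest in vehicle IgG 2 and highest in mavrilimumab 1, and DESeq2 called none of them. The summed migratory list was at 407, 3019 and 774 CPM, and without the 3 migratory cells at 399.7, 1294 and 588 CPM.

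Some cytokine genes were called higher as well. The 10 tested genes of the chemokine and cytokine list had a median log2 difference of 2.15, and DESeq2 called fewer of them than edgeR. With no filter on low counts the median over 18 genes was 1.69. Ccl5, Il1b and Cxcl10, low in vehicle IgG 2, passed the filter by their level in the mavrilimumab libraries. Such genes had to differ, so their calls say little by themselves. Of the monocyte list Lyz2 and Fn1 were called higher and Vcan lower, of 7, but without the Scrublet doublets only Fn1 was called, of 6, and DESeq2 called only Lyz2. Ccl5, a chemokine for T cells, was at 0 in vehicle IgG 2 and at 200.5 and 201 CPM in the mavrilimumab libraries, at least 12.8-fold higher, from 13 cells. Ccl5 was at 1356, 3103 and 2458 CPM in the T cell gate, where it is abundant. Il1b, which encodes interleukin-1β, stood at 15.7, 100.2 and 252 CPM (ratio 14.6, 4.94 to 71.3), and Cxcl10, a chemokine for CXCR3-bearing T cells, at 10.4, 118 and 80.9 CPM (ratio 8.28, 2.23 to 69.4). Csf1r stood at 20.9, 265 and 143 CPM (log2 difference 3.12 ± 0.64). The cDC2 genes Sirpa and Clec10a had ratios of 7.65 (2.56 to 37.6) and 7.19 (2.40 to 35.3). Csf1r, Sirpa and Clec10a, and Ifit3 of the interferon list, also passed the filter by their level in the mavrilimumab libraries. Their calls say little by themselves. Sirpa, Clec10a, Csf1r, Il1b and Cxcl10 were also among the genes called lower in cDC1 than in Cd209a+ cells. Of the interferon list Ifit3 and Rtp4 were called of 29 (median 0.76), and of the class II and class I lists none of 10 and none of 15.

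The same genes within cDC1 alone were given by few cells. Cd40 stood at 0, 76.6 and 29.1 CPM in cDC1 of vehicle IgG 2, mavrilimumab 1 and mavrilimumab 2, from 0, 3 and 1 cells. Relb stood at 8.03, 91.9 and 29.1 CPM, from 1, 4 and 6 cells, and was not called. Sirpa and Csf1r were at 0 in cDC1 of vehicle IgG 2 and mavrilimumab 1, and Cd14 was at 0 in all 3. The fit of cDC1 alone called 91 genes, 6 of them higher.

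The targeted receptor itself was not called between treatments. Csf2ra stood at 329 CPM in vehicle IgG 2 and at 531 and 329 CPM in mavrilimumab 1 and 2 (log2 difference 0.28 ± 0.40, edgeR adjusted p = 0.900). Csf2rb stood at 120.1, 395 and 172 CPM (1.07 ± 0.45, edgeR adjusted p = 0.269). The 11 tested genes of the growth factor list had a median log2 difference of 1.07. It was 3.12 ± 0.64 for Csf1r and 3.95 ± 0.92 for Socs3, and DESeq2 called neither of these. Both were low in vehicle IgG 2 and passed the filter by their level in the mavrilimumab libraries, so they had to differ. Jak2, Stat5a and Pim1 were not called, with log2 differences of 0.52 ± 0.44, 0.79 ± 0.64 and 0.43 ± 0.42.

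Some neural genes were called lower in the mavrilimumab libraries. Of the 12 genes of the neural list 5 passed the filter on low counts, by their level in vehicle IgG 2, and 4 of these were called lower, where 2.6% of all genes were. Such genes had to differ, so the count says little by itself. With no filter 6 of 12 were called lower, DESeq2 called 3 of 5, and without the 4 Scrublet doublets 1 of 2 was called. Olig1, a transcription factor of oligodendrocyte precursors, stood at 345 CPM in vehicle IgG 2 and at 5.90 and 5.32 CPM in the mavrilimumab libraries. Luzp2 and Ntm, also genes of neural tissue, were at 340 and 313 CPM in vehicle IgG 2 and at 0 in both others, at least 126-fold and 116-fold lower. The neural list was also highest in vehicle IgG 2 in the T cell gates, as given above. Outside the neural list, the cell cycle genes Hmgb2 and Stmn1, the E-protein gene Tcf4 and the cDC1 adhesion gene Cadm1 were lower, with log2 differences of -1.27 ± 0.37, -2.02 ± 0.48, -1.82 ± 0.38 and -1.46 ± 0.46. Within cDC1, Cadm1 stood at 241, 245 and 142 CPM in vehicle IgG 2, mavrilimumab 1 and mavrilimumab 2. Cadm1 was not called without the Scrublet doublets (edgeR adjusted p = 0.271), and DESeq2 called none of these 4 genes. The cDC1 list as a whole had no gene higher and 1 lower of 13 (median -0.50).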

How the data were processed

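The authors deposited unfiltered matrices of UMI counts per gene and barcode (33696 genes), whose file headers name Cell Ranger 9.0.1. The submitters' processing notes name Cell Ranger 7 and 7.1.0, Scanpy 1.8.2 and mm10, so the build of these matrices is uncertain and no coordinates are given. The deposited TCR contig files were used for their barcodes. From these counts, barcodes were gated as described, summed per library and gate, and tested with edgeR 4.0.16 (TMM, filterByExpr, quasi-likelihood, Benjamini-Hochberg adjustment, threshold 0.05) in R 4.3.3. Alternatives used DESeq2 1.42.0. Gating, intervals and doublet calls used Scanpy 1.11.5, pandas 2.3.3, scipy 1.17.1 and numpy 2.4.6 in Python 3.11.15. Genes of a gate were left out of counts of calls.

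The planned minimums of 20 cells per library (10 per subset) left too few libraries for 3 of the comparisons. The treatment comparison used the listed alternative of 10. The minimums of 5 cells per subset and of 10 monocytes and macrophages were chosen after seeing the data, as were the fit of cDC1 alone and the test of subset shares with at least 10 cells per library.

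Named genes were up to 12 per direction with the largest change at an adjusted p under 0.05 and a mean of at least 20 CPM, with 1 direction in every library or no overlap between treatments, and members of the marker lists. The members and lists were chosen with earlier results of these data known. On simulated counts edgeR recovered 54% of 4-fold and 94% of 16-fold changes for treatment, 96% and 100% for cDC1 against Cd209a+ cells, 90% and 100% for monocytes and macrophages, and 55% and 96% for microglia. Ratios carry exact counting intervals (95%), and the floor was 3 counts over a group. The remaining vehicle IgG TCR library was not analysed here, and some single-gene results are not reported here.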

Additional observations from a re-analysis of the deposited data

Results flagged for a closer look

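For 4 of the genes reported here the difference between cells ran one way in the library labelled vehicle IgG 2 and the other way in both mavrilimumab libraries. This difference in direction was not tested, the counts are low, and groups of 2 libraries were too small for an outlier test. In cDC1 minus Cd209a+ cells, Il1b was at 24.1 CPM in vehicle IgG 2 and at -258 and -397 CPM in mavrilimumab 1 and 2, Socs3 at 8.03 CPM and at -129 and -111 CPM, and the lipid carrier Apoe at 80.3 CPM and at -6.15 and -620.02 CPM. In dendritic cells minus monocytes and macrophages, the lectin gene Clec10a was at -5.59 CPM in vehicle IgG 2 and at 215 and 70.5 CPM in the mavrilimumab libraries.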

How the results depend on the processing

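The difference in the share of dendritic cells kept its direction under every alternative tried and was 0.229 to 0.898 points with each library left out in turn. After thinning to 1000 UMIs the subset shares were 25% cDC1, 0% mixed, 0% migratory and 54.6% undetermined. With each library left out, the cDC1 share ran from 29.2% (without vehicle IgG 2) to 54.5% (without mavrilimumab 2) and the mixed share from 14.5% to 27.8%. Between treatments 154 genes were called, 426 with no filter on low counts, 86 by DESeq2, 51 without the Scrublet doublets and 91 in cDC1 alone, where the sign for Lyz2 reversed (-0.18). For cDC1 against Cd209a+ cells 326 were called, 122 by DESeq2, 216 without plasmacytoid-like members and 116 (without mavrilimumab 2) to 403 with a library left out. For monocytes and macrophages 266 were called, 583 with no filter, 159 by DESeq2, 92 without the library term and 109 (without mavrilimumab 2) to 438 (without vehicle IgG 2) with a library left out. For microglia 1335 were called, 766 by DESeq2, 0 without the library term, 2033 without Scrublet doublets, 880 without plasmacytoid-like members and 2159 with at least 10 cells per gate. The causes were not tested. Among named genes, 51 of 570 values for the subsets, 68 of 638 for monocytes and macrophages, 162 of 918 for microglia and 48 of 270 for treatment lost the call. No paired analysis was possible because the block left no residual degrees of freedom for treatment, and the other comparisons already hold the library in the model.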

Other observations

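Genes known from plasmacytoid dendritic cells and progenitors were seen in part of the cells. Siglech was seen in 26 of the 108 cells or 24.1% (3.70% after thinning to 1000 UMIs), against 0.395% of the T cell gate (0.0683% after thinning), at median depths of 9218 UMIs and of 2602 to 12708 UMIs. Of these cells 11 were cDC1 and 8 mixed. Siglech is also a microglial gene, and the part of free microglial RNA was not tested. Tcf4, the transcription factor of plasmacytoid fate, was seen in 79.6% (22.2% after thinning), against 15.3% (6.98%). Kit, the receptor for stem cell factor, was seen in 30.6% (7.41% after thinning), against 2.53% (0.592%). The summed plasmacytoid list ran from 1426 CPM in migratory cells to 2216 CPM in Cd209a+ cells. In vehicle IgG 2, mavrilimumab 1 and mavrilimumab 2 it stood at 2079, 2370 and 1827 CPM in dendritic cells. It stood at 1994, 3427 and 2783 CPM in microglia and at 751, 3748 and 1151 CPM in monocytes and macrophages. The list was thus higher in microglia than in dendritic cells of both mavrilimumab libraries.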
